A study of Mus musculus with 8 samples.

Results

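The enzymes and carriers that supply, split and oxidise arginine were followed in the lungs of BALB/c mice with ovalbumin (OVA)-induced allergic airway inflammation. The 10 genes were chosen by name: Slc7a1 and Slc7a2, which encode cationic amino acid transporters; Arg1 and Arg2, the cytosolic and the mitochondrial arginase; Odc1, ornithine decarboxylase; Ass1 and Asl, argininosuccinate synthase and argininosuccinate lyase; and Nos1, Nos2 and Nos3, the neuronal, inducible and endothelial nitric oxide synthase (NOS). All 10 had a probe on the array, out of 45616 genes or unnamed transcripts with a probe, and 9 of the 10 passed the filter on dim probes. The exception was Nos1. Lung RNA came from 8 female mice, 2 in each of 4 groups. NT mice ate standard feed and received no OVA. Ctrl-F, Cap-F and ODNcap-F mice were all immunized with OVA and alum by intraperitoneal injection and then inhaled an OVA aerosol, so that immunization and inhalation cannot be told apart, and differed only in feed: standard feed, feed with carbonate apatite particles (Cap), or feed with the same particles loaded with the CpG-oligodeoxynucleotide MsST (ODNcap). Mice were 4 weeks old at purchase, were housed for 2 weeks and then fed for 70 days, and lungs were taken 24 h after the last inhalation. Each array was hybridized with the RNA of 1 mouse. Which of the repeated animal experiments each lung came from is not given in the sources used here.

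Arginine enters cells through cationic amino acid transporters and is then shared between competing enzymes. Arginases split it into ornithine and urea, and ornithine decarboxylase turns ornithine into putrescine, the first polyamine. NOS isoforms oxidise arginine to nitric oxide and citrulline, from which argininosuccinate synthase and lyase rebuild arginine. In the lung, Arg1 is known as a target of interleukin (IL)-4 and IL-13 in macrophages, Nos2 as an enzyme induced by inflammatory cytokines in macrophages and epithelium, and Nos3 as a product of vascular endothelium.

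On the arrays, 61.3% to 65.0% of probes were well above background, no spot was saturated, and all 8 arrays lay on 1 slide read in 1 scan. Values are log2 signals, quantile normalized over the 8 arrays, so that a difference of 1 is a doubling, and levels of different probes are not compared. Row 1 of the slide held the arrays of NT and Ctrl-F, and row 2 those of Cap-F and of ODNcap-F. Row and group thus cannot be told apart except in Ctrl-F against NT and ODNcap-F against Cap-F. In those comparisons the columns differed. NT and Cap-F lay in columns 1 and 2, and Ctrl-F and ODNcap-F in columns 3 and 4. No comparison of groups is therefore free of slide position. Markers of alveolar type 2 cells, club cells and endothelium were well above background on all arrays. Fold changes, standard errors (SE) and adjusted p-values come from limma, fitted over the 37116 probes, of 28992 genes or transcripts, that passed the filter, and a gene was called at an adjusted p under 0.05. With 2 mice against 2, an exact permutation test of a single gene cannot go below a two-sided p of 0.333.

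Promoter sequence was at hand for 4 of the 10 genes (RefSeq, GRCm38.p6). The 250 bases before the start site are shown for Ass1, Odc1 and Slc7a1, 3 genes that were higher in every OVA-challenged group, and for Slc7a1 at both of its annotated start sites. They are written 5′ to 3′ on the strand of the gene, and capitals mark matches, on either strand, to 8 motifs.
Ass1, chr2:31470020-31470269, plus strand: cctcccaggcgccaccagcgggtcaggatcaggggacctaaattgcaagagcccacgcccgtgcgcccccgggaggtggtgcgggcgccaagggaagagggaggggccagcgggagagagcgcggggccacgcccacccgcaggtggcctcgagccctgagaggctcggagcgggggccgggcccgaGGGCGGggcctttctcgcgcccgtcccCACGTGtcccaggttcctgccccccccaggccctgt
Odc1, chr12:17544623-17544872, plus strand: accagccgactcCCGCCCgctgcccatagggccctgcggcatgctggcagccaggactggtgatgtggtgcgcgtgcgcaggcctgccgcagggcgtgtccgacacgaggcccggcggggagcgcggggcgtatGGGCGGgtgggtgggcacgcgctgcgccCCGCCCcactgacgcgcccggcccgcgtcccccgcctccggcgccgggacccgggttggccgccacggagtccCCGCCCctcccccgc
Slc7a1, chr5:148399905-148400154, minus strand: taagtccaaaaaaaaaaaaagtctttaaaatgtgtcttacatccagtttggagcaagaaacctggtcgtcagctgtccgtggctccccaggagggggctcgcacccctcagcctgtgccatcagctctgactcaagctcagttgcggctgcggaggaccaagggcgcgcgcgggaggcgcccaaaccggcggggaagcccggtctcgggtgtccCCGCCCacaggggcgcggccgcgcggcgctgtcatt
Slc7a1, second start site, chr5:148392816-148393065, minus strand: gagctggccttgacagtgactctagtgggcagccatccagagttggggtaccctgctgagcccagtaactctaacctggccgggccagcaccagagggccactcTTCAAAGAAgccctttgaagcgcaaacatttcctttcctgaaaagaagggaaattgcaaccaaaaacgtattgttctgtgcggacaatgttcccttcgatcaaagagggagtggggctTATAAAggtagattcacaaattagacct
The capitals in Ass1 are a GC box (GGGCGG) that begins 63 bases before the start site and an E-box (CACGTG) that begins 36 bases before it. Odc1 held 4 GC boxes and the first Slc7a1 window 1. The second Slc7a1 window held no GC box, but a TATA box (TATAAA) and the spaced palindrome TTCNNNGAA bound by STAT factors. No marked match overlapped another. Of 32851 promoters of the same length, 6.02% held the E-box, 32.7% a GC box, 12.4% the TATA box and 7.02% the palindrome TTCNNNGAA. The other motifs searched were the STAT6 palindrome with 4 bases between its arms (5.85% of promoters), the cAMP element TGACGTCA (1.55%), the amino acid response element TGATGNAA (3.45%) and CCAAT (33.8%). None of these letters stood in the 4 windows shown, and none of the 8 motifs in the window of Nos1.

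Whether OVA challenge was accompanied by changes in these genes was asked first, with each OVA-challenged group set against NT. All 9 genes tested were called against NT in each of the 3 challenged groups, 8 of them higher and Nos3 lower than in NT. These comparisons called much of the transcriptome: 61.9% of all genes tested for Ctrl-F, 56.6% for Cap-F and 60% for ODNcap-F, with 26.2%, 24.1% and 25.1% called higher and 35.7%, 32.4% and 34.9% called lower. Set against the mean of the 3 challenged groups, where the same 8 were higher and Nos3 lower, 66.5% of all genes were called, 27.7% higher and 38.7% lower. No challenged mouse overlapped the NT mice in any of the 9 genes, as was true of 84% of all genes for Ctrl-F, 82.1% for Cap-F, 82.3% for ODNcap-F and 69.5% for the 3 groups together. A call by itself therefore sets no gene apart here, and the size of the change says more. With a fold change over 2 also required, 6 genes were higher and 1 lower for Ctrl-F, against 10.5% and 12.2% of all genes. The corresponding counts were 5 and 1 in Cap-F, against 9.74% and 9.87%, 6 and 1 in ODNcap-F, against 9.86% and 10.8%, and 6 and 1 for the mean of the challenged groups, against 10% and 11.2%. The median log2 fold change of the 9 genes was 1.13 for Ctrl-F, 1.06 for Cap-F and 1.06 for ODNcap-F. The median over all genes tested was -0.12, -0.11 and -0.12. Because the genes were chosen with earlier results of these data known, these shares and medians describe them and are not a test. In whole lung RNA, more cells of a type and more RNA per cell cannot be told apart.

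**Figure D1:**
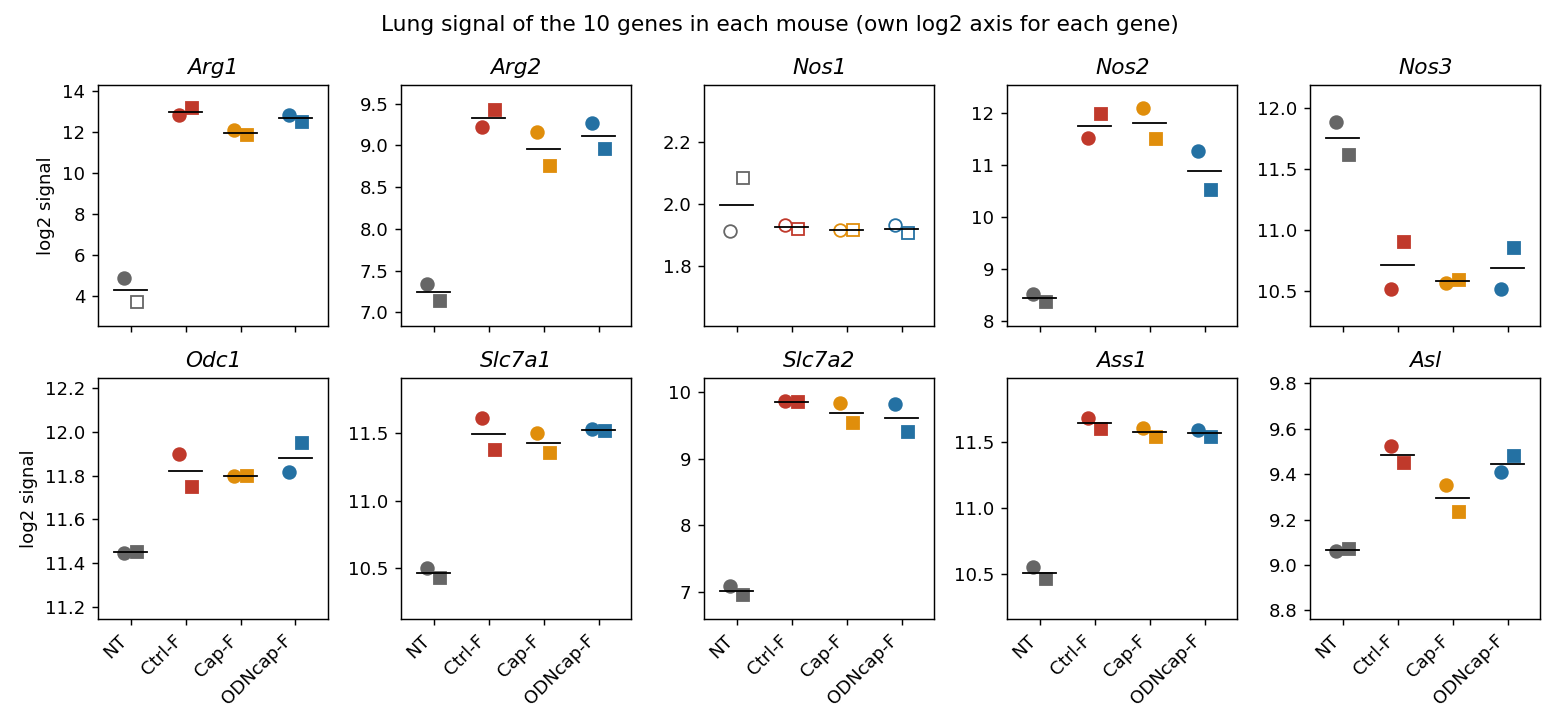
Log2 signal of the 10 genes in each of the 8 mice (circle, mouse 1; square, mouse 2; line, group mean; open symbol, not well above background), with a separate axis for each gene. In 8 genes every OVA-challenged mouse lies above both NT mice, in Nos3 every one lies below, and Nos1 is open in all 8 mice.

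Both transporter genes were higher after OVA challenge, Slc7a2 by more than Slc7a1. Slc7a2, which encodes the transporter CAT-2 that is inducible in macrophages, had log2 signals of 7.09 and 6.95 in the NT mice. Signals were 9.86 and 9.84 for Ctrl-F, 9.83 and 9.53 for Cap-F, and 9.82 and 9.40 for ODNcap-F. The lowest OVA-challenged mouse thus stood far above the higher NT mouse, and Cap-F and ODNcap-F overlapped just below Ctrl-F. The log2 fold change against NT was 2.83 for Ctrl-F (SE 0.17, adjusted p = 7.24e-05), 2.66 for Cap-F and 2.59 for ODNcap-F, that is 7.12-fold, 6.32-fold and 6.03-fold. Slc7a1, which encodes the widely expressed transporter CAT-1, had log2 signals of 10.50 and 10.42 in NT and between 11.35 and 11.61 in the 6 OVA-challenged mice. Its level was 2.05-fold higher in Ctrl-F (95% interval 1.72 to 2.43, adjusted p = 4.05e-04), 1.95-fold in Cap-F and 2.09-fold in ODNcap-F. The rise of Slc7a2 exceeded that of Slc7a1 by 1.32 to 1.91 on the log2 scale in the 6 OVA-challenged mice, and the NT mice differed from their mean by 0.034.

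Arg1 showed one of the largest rises on the array. NT mouse 1 had a log2 signal of 4.90 and NT mouse 2 a signal of 3.71, which was not well above background. Signals were 12.84 and 13.18 for Ctrl-F, 12.09 and 11.89 for Cap-F, and 12.86 and 12.53 for ODNcap-F. Every OVA-challenged mouse was thus far above both NT mice, and both Cap-F mice lay below the Ctrl-F and ODNcap-F mice. In these comparisons of Cap-F, 51.7% and 45.7% of all genes separated. Group means were 4.31 ± 0.84 for NT, 13.01 ± 0.24 for Ctrl-F, 11.99 ± 0.14 for Cap-F and 12.69 ± 0.23 for ODNcap-F (mean ± SD of n = 2 mice). The log2 fold change against NT was 8.70 for Ctrl-F (SE 0.38, adjusted p = 2.78e-05), 7.69 for Cap-F (SE 0.38, adjusted p = 4.82e-05) and 8.39 for ODNcap-F (SE 0.38, adjusted p = 3.54e-05). Among 28992 genes these changes ranked 13, 32 and 19 from the highest. Arg1 passed the filter on dim probes only through the challenged groups, where it is high, so these ranks describe it and are not a test. No rank was taken with normexp background correction. As a ratio, Arg1 was 416-fold higher in Ctrl-F (95% interval 219 to 793), 206-fold in Cap-F and 335-fold in ODNcap-F. These ratios depend on a level in NT at the edge of detection. Without NT mouse 1 the log2 fold change in Ctrl-F was 9.29 and without NT mouse 2 it was 8.11, and normexp background correction lowered it to 6.49 for Ctrl-F, 5.43 for Cap-F and 6.15 for ODNcap-F. Arg1 is also the tested gene of the 9 that the normalized table of the authors leaves out.

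Arg2 rose by far less. Its log2 signals were 7.34 and 7.14 for NT, 9.23 and 9.42 for Ctrl-F, 9.16 and 8.76 for Cap-F, and 9.27 and 8.96 for ODNcap-F, so that all OVA-challenged mice stood above both NT mice and the challenged groups lay close together. The log2 fold change against NT was 2.08 for Ctrl-F (SE 0.18, adjusted p = 2.40e-04), 1.71 for Cap-F and 1.87 for ODNcap-F, or 4.23-fold, 3.28-fold and 3.65-fold. Set against the NT mean, the rise of Arg1 exceeded that of Arg2 by 5.87 to 6.69 on the log2 scale in the 6 OVA-challenged mice. This excess was smallest in the 2 Cap-F mice, at 5.87 and 6.07. It depends on the Arg1 signal in NT at the edge of detection, and with normexp background correction it was 4.02 to 4.90, again smallest in Cap-F.

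Marker genes of several leukocytes rose in the same mice. For alternatively activated macrophages, all 5 of Chil3, Retnla, Mrc1, Clec10a and Ccl24 were called higher in each OVA-challenged group, and their mean log2 signal moved from 10.49 and 10.53 for NT to between 14.17 and 14.46. Of 5 general macrophage markers, Adgre1, Cd68 and Itgax rose and Marco and Mertk fell in each group, with list means of 10.46 and 10.53 for NT and 10.88 to 11.13 after challenge. All 5 eosinophil markers rose, from list means of 6.26 and 6.86 to between 9.58 and 9.97, and all 5 B and plasma cell markers rose too. No list of these held a marker below background on every array. Of all genes, 24.1% to 26.2% were called higher and 32.4% to 35.7% lower in the challenged groups. Relative to the NT mean, the signal of Arg1 rose by 3.90 to 5.06 more than the mean of the alternatively activated macrophage markers and by 4.27 to 5.51 more than the eosinophil mean. With normexp these values fell to between 1.79 and 2.96 and to between 3.07 and 4.36. Arg1 in NT mouse 2 and the eosinophil marker Epx in both NT mice were not well above background. The other lists moved less uniformly in Ctrl-F: 3 of 4 T cell markers rose, 2 of 4 neutrophil markers rose and 1 fell, and 3 of 5 alveolar type 2, 2 of 4 club cell, 2 of 4 ciliated cell, 4 of 5 cardiomyocyte and 4 of 5 adipocyte markers fell. The cardiomyocyte mean differed within Cap-F, at 7.27 and 9.94. The part of these cells in the Arg1 and Arg2 signals was not tested.

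**Figure D2:**
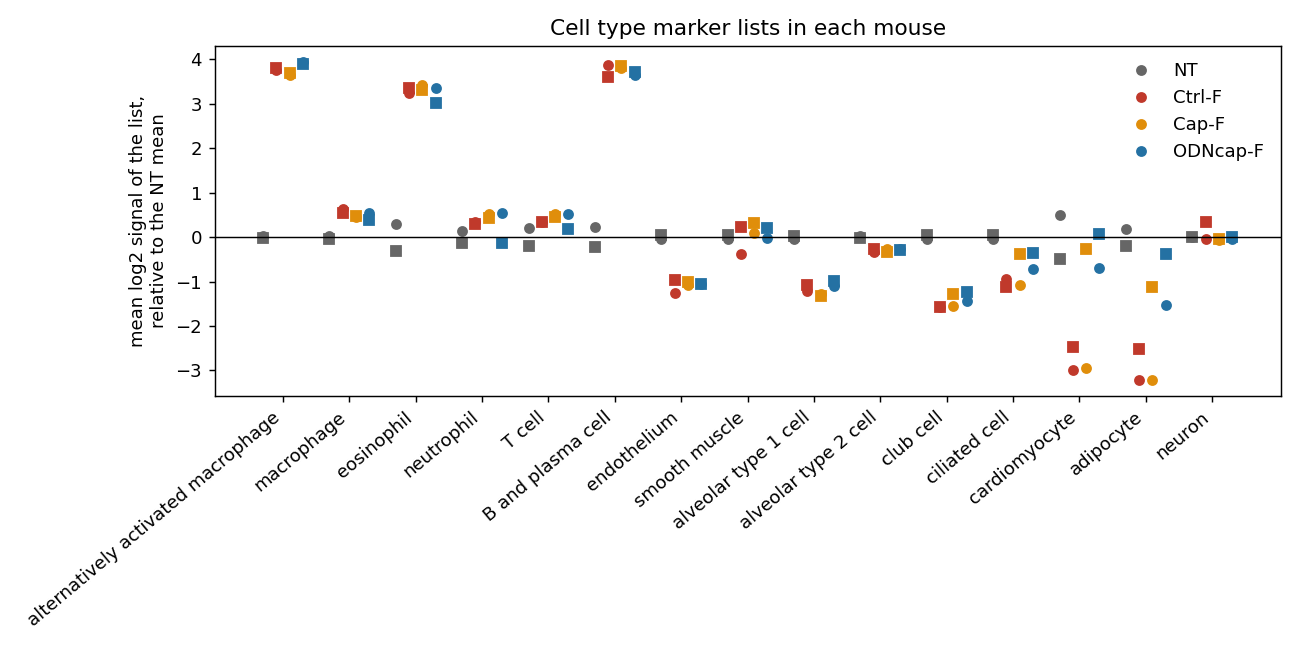
Mean log2 signal of the genes of each cell type marker list in each mouse, relative to the NT mean (circle, mouse 1; square, mouse 2). Alternatively activated macrophage, eosinophil, and B and plasma cell lists lie above 3 in all OVA-challenged mice and the endothelial list near -1, while the cardiomyocyte and adipocyte lists differ between mice of a group.

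Odc1, the rate-limiting enzyme of polyamine synthesis, was higher by a small amount. The brighter of its 2 probes gave log2 signals of 11.45 in both NT mice, 11.90 and 11.75 for Ctrl-F, 11.80 in both Cap-F mice, and 11.82 and 11.95 for ODNcap-F. All OVA-challenged mice thus lay above NT, by a log2 fold change of 0.38 for Ctrl-F (SE 0.08, adjusted p = 0.00945), 0.35 for Cap-F (adjusted p = 0.0136) and 0.43 for ODNcap-F (adjusted p = 0.00564). The dimmer probe was not called in any of these comparisons, at 0.20, 0.05 and 0.21 with adjusted p-values of 0.0827, 0.636 and 0.0676 in limma. The call in Cap-F was lost when either NT mouse or either Cap-F mouse was left out, at log2 fold changes of 0.35.

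Of the recycling enzymes, Ass1 was about doubled and Asl moved little. Ass1 had log2 signals of 10.55 and 10.46 for NT, 11.68 and 11.60 for Ctrl-F, 11.61 and 11.54 for Cap-F, and 11.59 and 11.54 for ODNcap-F. Mice of a group hardly differed and none of the OVA-challenged mice came near NT. Cap-F overlapped both other challenged groups, and both ODNcap-F mice lay just below the Ctrl-F mice. In ODNcap-F against Ctrl-F 35.6% of all genes separated, and the difference of Ass1 was -0.07 (adjusted p = 0.884 in limma). The log2 fold change against NT was 1.13 for Ctrl-F (SE 0.07, adjusted p = 1.01e-04), 1.06 for Cap-F and 1.06 for ODNcap-F, a ratio of 2.19, 2.09 and 2.08. Asl, which acts directly after Ass1, had log2 signals of 9.06 and 9.07 for NT, 9.52 and 9.45 for Ctrl-F, 9.35 and 9.24 for Cap-F, and 9.41 and 9.48 for ODNcap-F. It was higher by 0.42 for Ctrl-F (adjusted p = 0.00383), 0.23 for Cap-F (adjusted p = 0.0412) and 0.38 for ODNcap-F (adjusted p = 0.00616), each with an SE of 0.07. The Cap-F call of Asl was lost in limma when any of the 8 mice was left out, at log2 fold changes of 0.17 to 0.28, and in the local-pooled-error (LPE) test of the study (adjusted p = 0.266), which also lost the ODNcap-F call (adjusted p = 0.0564). In every OVA-challenged mouse the rise of Ass1 exceeded that of Asl, by 0.62 to 0.86 on the log2 scale.

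The NOS isoforms moved in different directions. Nos1 was not well above background in any of the 8 mice, with log2 signals of 1.91 to 2.09, and was not tested. Nos2 had log2 signals of 8.52 and 8.36 for NT, 11.52 and 11.99 for Ctrl-F, 12.10 and 11.51 for Cap-F, and 11.28 and 10.52 for ODNcap-F. All challenged mice lay above NT, and both ODNcap-F mice lay below the Ctrl-F and Cap-F mice. In these comparisons of ODNcap-F, 35.6% and 45.7% of all genes separated. The log2 fold change against NT was 3.31 for Ctrl-F (SE 0.32, adjusted p = 3.54e-04), 3.37 for Cap-F (SE 0.32, adjusted p = 4.00e-04) and 2.46 for ODNcap-F (SE 0.32, adjusted p = 0.00118). In ratios, Nos2 was 9.95-fold higher in Ctrl-F (95% interval 5.81 to 17.0), 10.3-fold in Cap-F (6.03 to 17.7) and 5.50-fold in ODNcap-F (3.22 to 9.42).

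Nos3 fell. Its log2 signals were 11.89 and 11.61 for NT, 10.51 and 10.90 for Ctrl-F, 10.57 and 10.59 for Cap-F, and 10.51 and 10.85 for ODNcap-F, so that no challenged mouse reached the NT range and the challenged groups overlapped. The log2 fold change was -1.04 for Ctrl-F (SE 0.18, adjusted p = 0.00352), -1.17 for Cap-F (adjusted p = 0.00251) and -1.06 for ODNcap-F (adjusted p = 0.00339). The level in NT was thus 2.06-fold, 2.25-fold and 2.09-fold that of Ctrl-F, Cap-F and ODNcap-F. Endothelial markers moved with it: Pecam1, Cdh5, Tek, Kdr, Cldn5 and Tie1 were called lower in each OVA-challenged group, while Vwf was not, at -0.02 for Ctrl-F. The mean log2 signal of the 7 endothelial markers was 12.98 and 13.05 for NT and 11.75 to 12.05 after challenge. Taken relative to this mean and to NT, Nos3 lay between -0.19 and 0.16 in the OVA-challenged mice, and at 0.18 and -0.18 in the NT mice. All 4 alveolar type 1 cell markers with a probe fell as well, whereas 0 of 5 smooth muscle markers were called in Ctrl-F. Of all genes, 32.4% to 35.7% were called lower in the challenged groups. The part of these cells in the Nos3 signal was not tested.

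**Figure D3:**
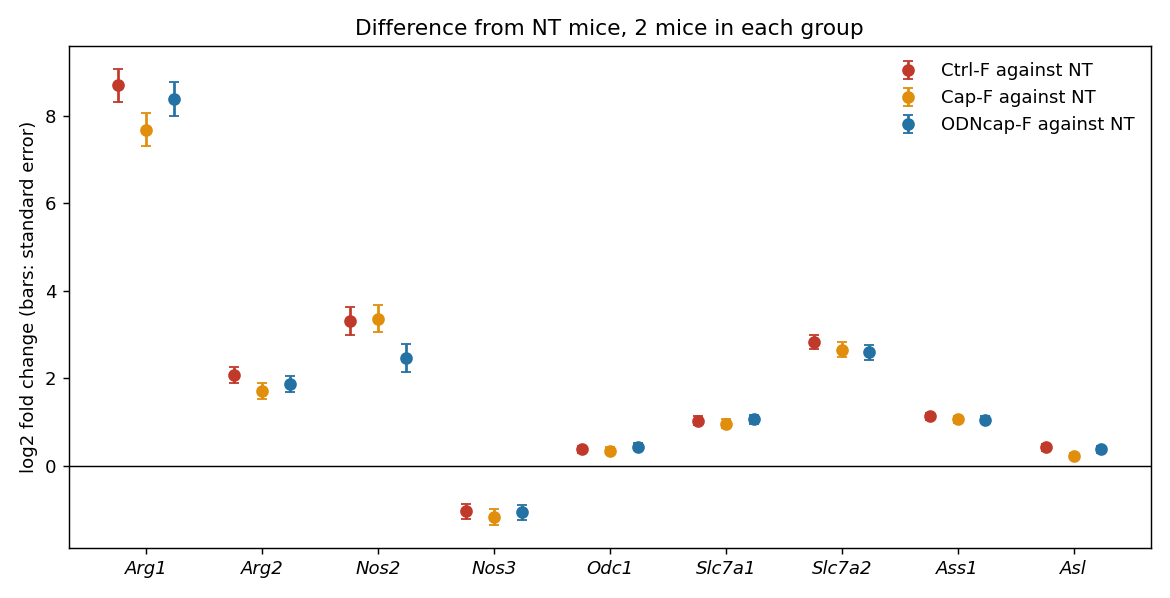
Log2 fold change of the 9 tested genes against NT in the 3 challenged groups Ctrl-F, Cap-F and ODNcap-F (points; bars, standard error in limma; n = 2 mice per group). Arg1 stands at 7.69 to 8.70, Slc7a2 and Nos2 between 2.46 and 3.37, Arg2 near 2, Slc7a1 and Ass1 near 1, Odc1 and Asl under 0.5, and Nos3 near -1.

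The next question was whether feed altered these genes among OVA-challenged mice. Of the 9 genes, 0 were called by limma in ODNcap-F against Ctrl-F, ODNcap-F against Cap-F or Cap-F against Ctrl-F, where 0%, 0.00345% and 0.00345% of all genes were called. At an unadjusted p under 0.05 the counts were 1, 1 and 2 of 9, against 6.78%, 13.4% and 16.6% of all genes. The LPE test, which borrows its variance from other probes of like intensity, called 1, 2 and 1 after adjustment, against 0.828%, 0.855% and 1.48% of all genes. Run on the normalized table of the authors, it called 1, 1 and 0 of 8, against 0.75%, 0.869% and 1.82%. Neither LPE run applied the fold change over 2 that the study also required for its lists of changed genes. The genes behind these counts were Nos2, Arg1 and Asl.

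Nos2 was lower in ODNcap-F, the group fed ODNcap, than in either other challenged group, but this difference did not pass the adjusted test in limma. Against Ctrl-F the log2 fold change was -0.85 (SE 0.32, 95% interval -1.63 to -0.08, adjusted p = 0.740), a level 1.81-fold lower. Against Cap-F it was -0.91 (SE 0.32, 95% interval -1.68 to -0.13, adjusted p = 0.344), or 1.87-fold lower. Both ODNcap-F mice lay below both mice of each other group, and 35.6% and 45.7% of all genes separated in one direction or the other in these comparisons. The LPE test called Nos2 in both comparisons, with fold changes under the 2 that the study also required for its lists of changed genes. The size rested on ODNcap-F mouse 2, which had the lower signal: without it the log2 fold changes were -0.48 and -0.53, and without ODNcap-F mouse 1 they were -1.23 and -1.28. That mouse also had the lowest list means of the challenged mice for neutrophil markers, at 11.50 against 11.94 to 12.17 in the others, and for T cell and eosinophil markers. Macrophage markers averaged 11.03 and 10.88 for ODNcap-F, 11.13 and 11.04 for Ctrl-F, and 10.95 and 10.97 for Cap-F. Cardiomyocyte and adipocyte markers, whose list means differed more, averaged 9.53 and 10.29, and 6.70 and 7.85, for ODNcap-F. The respective means were 7.23 and 7.75, and 5.03 and 5.71, for Ctrl-F, and 7.27 and 9.94, and 5.02 and 7.10, for Cap-F, so that ODNcap-F mouse 2 had the highest of the challenged mice. The part of these cell types in the Nos2 difference was not tested.

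Arg1 was lower in Cap-F, the group fed particles without ODN. Against Ctrl-F its log2 fold change was -1.01 (SE 0.38, 95% interval -1.94 to -0.08, adjusted p = 0.280), with groups that did not overlap, as for 51.7% of all genes. ODNcap-F stood 0.70 above Cap-F (95% interval -0.23 to 1.63, adjusted p = 0.492). Neither passed in limma, and the LPE test called both, at 2.02-fold and 1.63-fold. Between ODNcap-F and Ctrl-F the difference was -0.31 (95% interval -1.24 to 0.62, adjusted p = 0.910) and the mice overlapped. Alternatively activated macrophage markers averaged 14.17 and 14.20 for Cap-F, 14.28 and 14.32 for Ctrl-F, and 14.46 and 14.41 for ODNcap-F, and their part in the Arg1 difference was not tested. Asl also stood lower in Cap-F, by a log2 fold change against Ctrl-F of -0.19 (95% interval -0.37 to -0.01, adjusted p = 0.287), which neither the adjusted limma test nor the LPE test called.

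**Figure D4:**
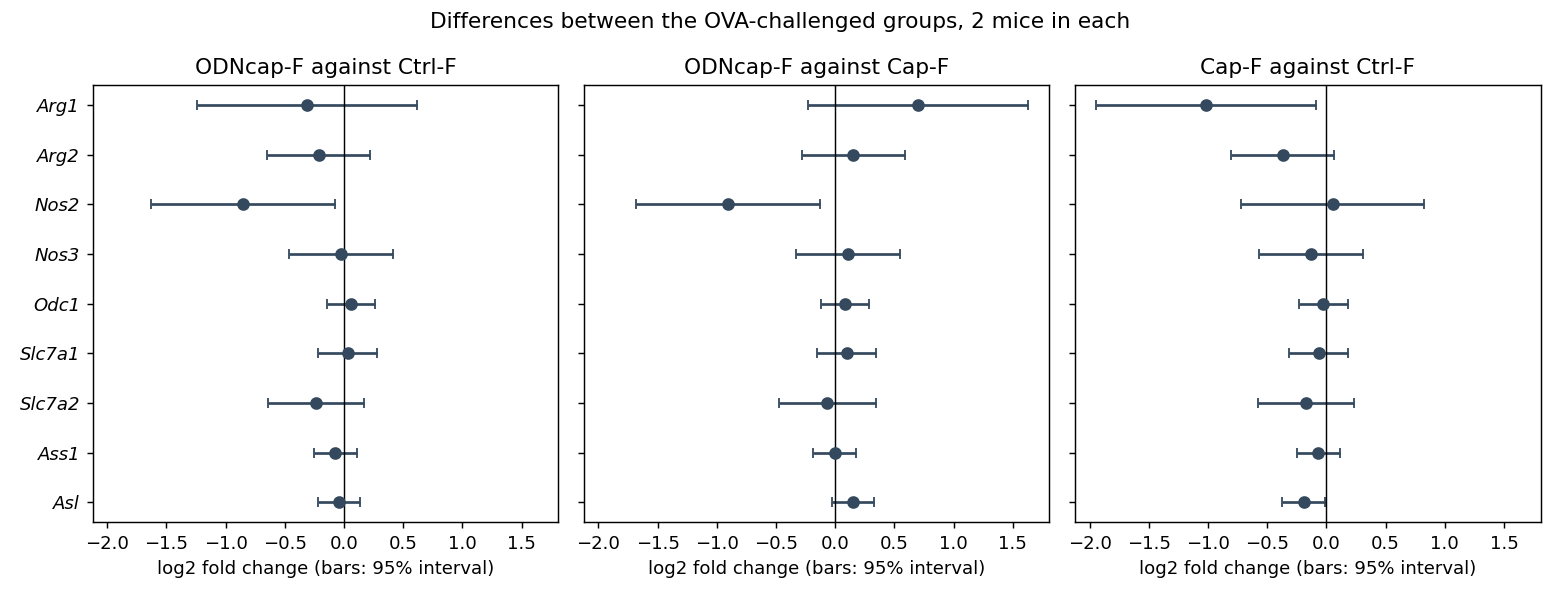
Log2 fold change of the 9 tested genes between the OVA-challenged groups (points; bars, 95% interval in limma without adjustment; n = 2 mice per group). Intervals that miss 0 belong to Nos2 in both comparisons of ODNcap-F and to Arg1 and Asl in Cap-F against Ctrl-F, and none of these passed after adjustment.

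The balance of Arg1 and Nos2, which draw on the same substrate, can be given as the difference of their log2 signals relative to its NT mean. It was 5.45 and 5.33 in the Ctrl-F mice, 4.13 and 4.51 for Cap-F, and 5.72 and 6.14 for ODNcap-F, against 0.51 and -0.51 for NT. With normexp background correction it was 3.45 and 3.37 for Ctrl-F, 2.11 and 2.52 for Cap-F, and 3.75 and 4.02 for ODNcap-F. Arg1 thus rose more than Nos2 in all 6 challenged mice. The challenged groups did not overlap, with Cap-F lowest and ODNcap-F highest under both corrections. Between feeds, 35.6% to 51.7% of single genes separated as well, and no such share was taken for differences between genes. The order restates the lower Arg1 of Cap-F and the lower Nos2 of ODNcap-F given above, which limma did not call. The order was noticed in these values and was not tested.

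For the other 6 genes, none of them called between feeds, the 95% intervals show how large a difference these arrays leave possible. In ODNcap-F against Ctrl-F the log2 fold change was 0.03 for Slc7a1, -0.07 for Ass1, 0.06 for Odc1, -0.24 for Slc7a2, -0.21 for Arg2 and -0.02 for Nos3. The largest of the 18 differences was that of Arg2 in Cap-F against Ctrl-F, at -0.37 (95% interval -0.80 to 0.07, adjusted p = 0.369 in limma). Its groups did not overlap there, as for 51.7% of all genes, and those of Slc7a2 did not overlap there either. Over the 3 feed comparisons together, the intervals lay between -0.25 and 0.18 for Ass1, between -0.23 and 0.29 for the brighter probe of Odc1, and between -0.32 and 0.35 for Slc7a1. They were wider for Slc7a2, between -0.65 and 0.34, for Nos3, between -0.57 and 0.54, and for Arg2, between -0.80 and 0.59. None of these intervals shows equal levels.

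Other genes of these pathways were then examined from lists chosen by function, with earlier results of these data known. Of 60 genes listed, 58 had a probe and 55 were tested. Otc, Cps1 and Agxt2 were not well above background in both mice of any group. In Ctrl-F against NT 44 of 55 were called, 22 higher and 22 lower, and Cap-F and ODNcap-F each gave 44, with 21 higher and 23 lower, beside the shares of all genes given above. With a fold change over 2 also required the counts were 18, 17 and 18. By that rule 10.5% of all genes were higher and 12.2% lower in Ctrl-F. The shares were 9.74% and 9.87% in Cap-F, and 9.86% and 10.8% in ODNcap-F. No gene of the lists was called between feeds, with a smallest adjusted p of 0.158 in limma.

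Among enzymes of arginine and ornithine metabolism, 7 of 9 were called in Ctrl-F, 4 higher and 3 lower. Of all genes, 26.2% were called higher and 35.7% lower in this comparison. Gatm, which makes the creatine precursor guanidinoacetate from arginine, had log2 signals of 6.55 and 6.79 for NT and 10.72 to 11.36 in the OVA-challenged mice. Its log2 fold change was 4.62 for Ctrl-F (SE 0.15, adjusted p = 1.09e-05), 4.16 for Cap-F and 4.40 for ODNcap-F, and both of its probes were called. Aldh18a1, which makes the proline and ornithine precursor from glutamate, rose by 2.20, 2.01 and 2.17. Nags, which makes the activator of the urea cycle, was not well above background in either NT mouse and was at least 2.998-fold, 2.77-fold and 2.09-fold higher in the 3 challenged groups, in the same order. Prodh, proline dehydrogenase, changed by -1.24, -1.12 and -1.03. Agmat, agmatinase, and Oat, ornithine aminotransferase, changed by -0.77 and -0.49 for Ctrl-F.

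Of 10 polyamine genes beside Odc1, 6 were called higher and 2 lower in each OVA-challenged group, counted by the brightest probe. Of all genes, 24.1% to 26.2% were called higher and 32.4% to 35.7% lower. Srm, spermidine synthase, rose by 1.41 for Ctrl-F (SE 0.12, adjusted p = 2.21e-04), 1.18 for Cap-F and 1.36 in ODNcap-F on the log2 scale, and all 3 of its probes were called in Ctrl-F. Paox, which oxidises acetylated polyamines, rose by 1.02, 0.695 and 0.997. Sat1, the acetyltransferase that marks polyamines for export or oxidation, rose by 0.78, 0.61 and 0.64 at its brightest probe, and its other probe was not called in Ctrl-F. Oaz2, an antizyme that inhibits ornithine decarboxylase, and Smox, spermine oxidase, changed by -0.42 and -0.295 for Ctrl-F at their brightest probes. The other antizyme of the list, Oaz1, went the other way, with log2 signals of 12.98 and 12.93 for NT and 13.20 to 13.35 after challenge. Of 3 Oaz2 probes, 1 was not called in Ctrl-F, and 2 were not called in Cap-F or in ODNcap-F. Sms, spermine synthase, was among the genes counted as higher, but 1 of its 3 probes was called lower in Cap-F, at -0.29. Of the other carriers of cationic amino acids, Slc7a3 had the largest change, at 2.28, 2.17 and 2.54, followed in Ctrl-F by Slc7a6 at 0.78 and Slc7a7 at 0.69. Slc6a14, an epithelial carrier, changed by -0.54 for Ctrl-F.

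Genes of NOS cofactor synthesis, NOS regulation and nitric oxide reception mostly moved down. The regulators were not split by whether they promote or restrain NOS, so the counts give no direction for NOS activity. Of 13 NOS cofactor and regulator genes, 2 were called higher and 8 lower in Ctrl-F, beside 26.2% and 35.7% of all genes. Higher were Gch1, GTP cyclohydrolase 1 and the first step towards the NOS cofactor tetrahydrobiopterin, at 0.71, and Prmt1, an arginine methyltransferase, at 0.42. Lower were Nos1ap, which encodes an adaptor of neuronal NOS, at -1.17, Spr, the last enzyme of tetrahydrobiopterin synthesis, at -0.67, and Cav1, caveolin 1, which binds endothelial NOS, at -1.32. All 6 genes of the nitric oxide receptor and its cyclic GMP pathway were called lower in each OVA-challenged group. Of all genes, 32.4% to 35.7% were called lower there. Prkg2, a cyclic GMP-dependent protein kinase, changed by -2.29 for Ctrl-F (SE 0.11, adjusted p = 4.19e-05), Gucy1a2, a receptor subunit, by -1.52, and Gucy1b1, the common subunit, by -1.15. Endothelial and alveolar type 1 cell markers fell in the same mice, as given above, and their part in these changes was not tested.

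Of 12 genes for known inducers of Arg1 or Nos2 and their factors, 7 were called higher and 2 lower in Ctrl-F. The shares of all genes were 26.2% and 35.7%. Il4 had log2 signals of 5.16 and 5.42 for NT and 8.99 to 9.28 in the OVA-challenged mice, a log2 fold change of 3.90 for Ctrl-F (SE 0.12, adjusted p = 8.69e-06), 3.77 for Cap-F and 3.86 for ODNcap-F. Il13 was not well above background in either NT mouse and was at least 2.93-fold, 2.39-fold and 2.08-fold higher. Ifng rose by 1.02, 1.39 and 1.26. By quantitative PCR in more mice, the study found lung Ifng raised in Ctrl-F and Cap-F but near baseline in ODNcap-F. In lavage fluid it found IL-4 and IL-13 protein raised in Ctrl-F and Cap-F, and comparable between NT and ODNcap-F. Irf1 and Stat6, transcription factors of the interferon and IL-4 responses, changed by -0.48 and -0.39 for Ctrl-F, but the dimmer probe of Irf1 was not called, at -0.15. The receptor gene Il4ra was not called, at 0.09, 0.03 and 0.10.

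**Figure D5:**
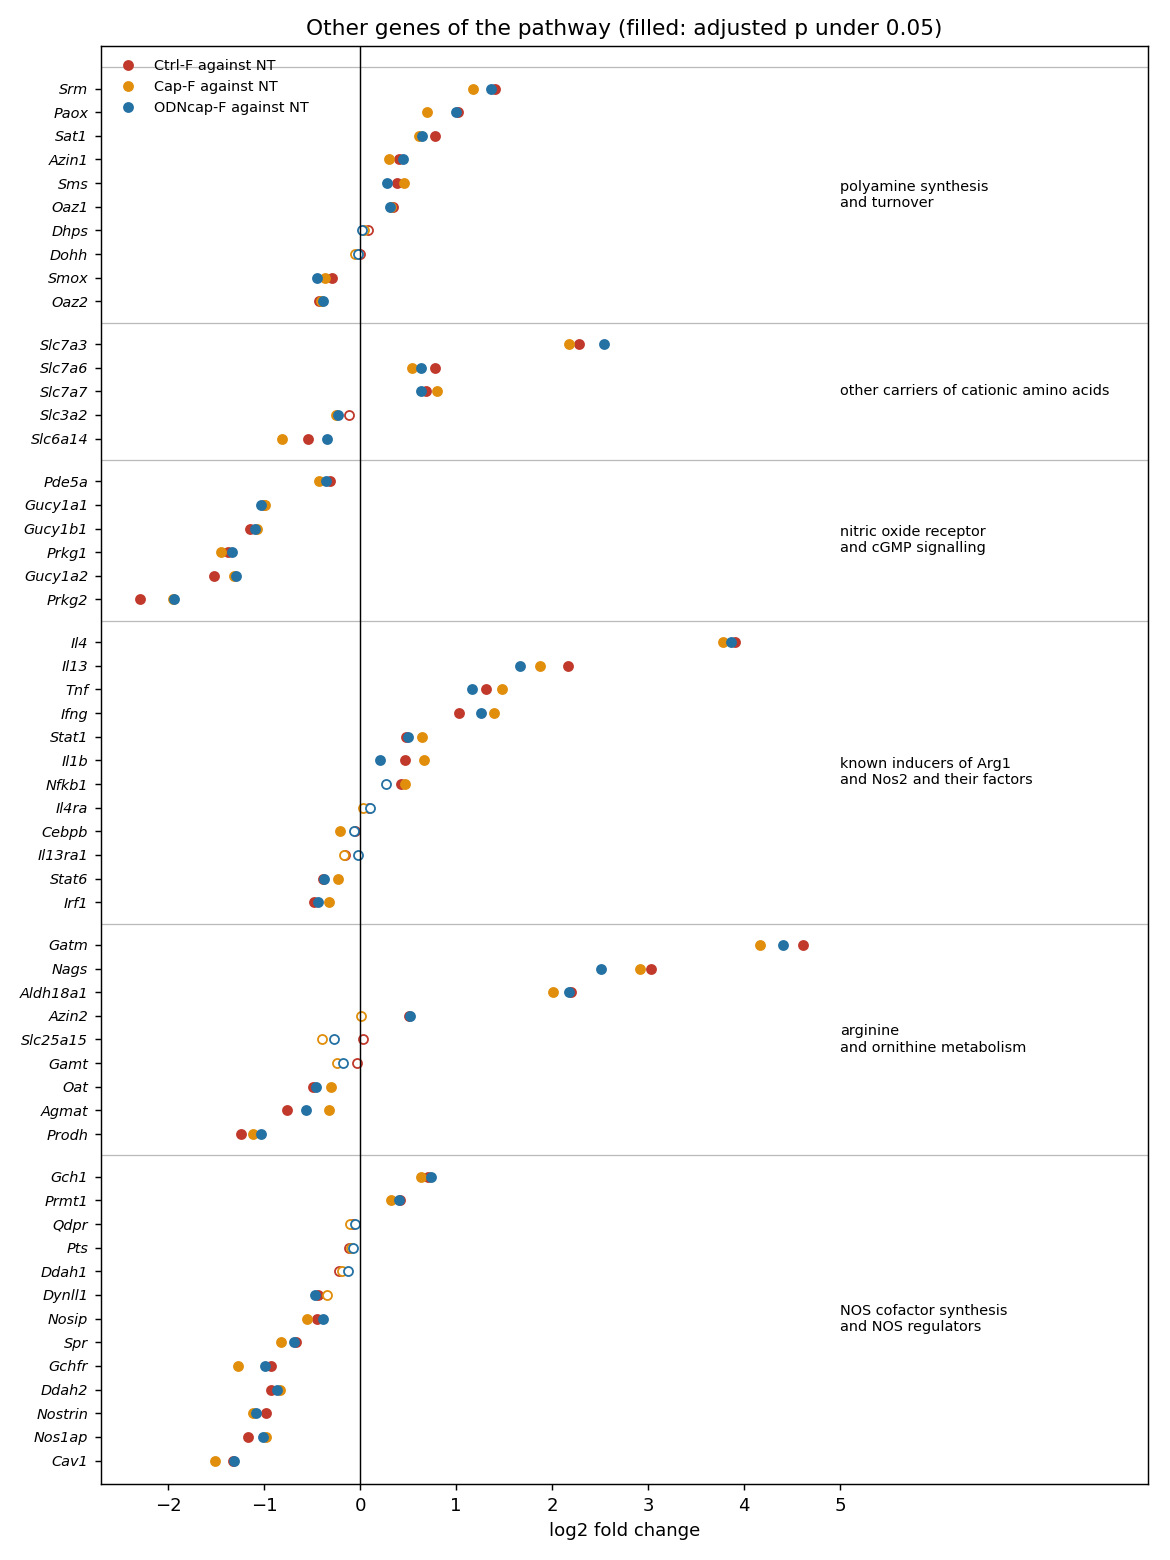
Log2 fold change of 55 other genes of the pathways against NT for Ctrl-F, Cap-F and ODNcap-F, grouped by list (filled, adjusted p under 0.05 in limma; n = 2 mice per group). The 6 genes of nitric oxide reception and cyclic GMP signalling all lie left of 0, Gatm and Il4 lie farthest right, and the points of Nags and Il13 are fitted values whose NT level was below background.

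The pattern over the 8 mice was compared with that of 16570 named genes. The genes most like Arg1 by Pearson correlation were Bcl2l15, Ccl6 and Spc24 (r = 0.999 for each), and for Arg2 Acsbg3 (r = 0.9997), Mcub (r = 0.997) and Cd63 (r = 0.996). For Nos2 they were Pf4 (r = 0.996), Hexa and Cd300c2 (r = 0.994 for both), and for Nos3 Bdkrb2 (r = 0.996), Nhlrc1 (r = 0.996) and Tbc1d10a (r = 0.995). Slc7a1 was closest to Ggct, Snrpd2 and Cox16, Slc7a2 to Gm14548, 4930512J16Rik and Bcl2a1c, and Ass1 to Snx20, Ccnb1 and Cenps, with r of 0.996 or above. Odc1 came closest to Nudt5 (r = 0.992), Atxn7 and Poln, and Asl to Gm8580 (r = 0.993), Etf1 and Gabrr2. These values describe the step between NT and challenged mice, which many genes share: 2420 of the 16570 genes had an r over 0.95 with Arg1, 1115 with Nos2 and 272 with Asl.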

How the data were processed

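Lung RNA of 8 mice was measured on single-color Agilent arrays. The authors deposited the background-subtracted intensity of each spot from Agilent Feature Extraction 11.0, with its flags, and a table of quantile normalized log2 values for 32312 probes, all well above background on all 8 arrays. Here, control spots were left out, 792 flagged spot values were set to missing, and intensities were log2 transformed, averaged over 56605 probes and quantile normalized. A probe was kept if any group had it well above background in both mice, which left 37116. Genes were named by accession through a RefSeq table (GRCm38.p6), and the brightest probe stood for a gene. The fit (limma 3.58.1, R 4.3.3) held all 8 arrays with 4 groups, no covariate and Benjamini-Hochberg adjustment over all kept probes. Probes were called at an adjusted p under 0.05. Where both arrays of a group lay below background, the fold is a bound ("at least"). The LPE test of the study was rebuilt with 100 intensity bins as an alternative. Normexp (offset 50) used median signals. The number of arrays limits the precision.

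The 10 genes, the pathway lists and the marker lists were chosen with earlier results of these data known. Pathway genes were named by rule: from each list, at most the 3 with the smallest p each way among those called in Ctrl-F against NT, and the 3 genes most like each of the 9 genes called. Il4ra, Oaz1 and genes not above background were named beside the rule, after their values were seen. One gene of the lists is not reported here and enters no count of them. Alternatives were scaling, background correction, filters, variance model, samples in the fit, replicate block, each mouse left out, mean of a gene's probes, call rule, test and the deposited log2 table.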

Additional observations from a re-analysis of the deposited data

How the results depend on the processing

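All 9 genes kept their direction against NT under every alternative run. Over these alternatives, 12 counts of genes moved by more than 1.5 times and 213 did not. With a fold change over 2 also required, pathway genes called numbered 18 in Ctrl-F (10 higher, 8 lower), 17 in Cap-F (9 and 8), 18 in ODNcap-F (9 and 9) and 19 for the mean of the OVA-challenged groups (9 and 10), in place of 44, 44, 44 and 45. By the same rule 6603, 5685, 5999 and 6153 of all 28992 genes tested were called, in the same order. Between feeds, limma called 0 of the 9 genes tested. An unadjusted p gave 1 in ODNcap-F against Ctrl-F, 1 in ODNcap-F against Cap-F and 2 in Cap-F against Ctrl-F, the LPE test 1, 2 and 1, and the LPE test on the deposited table, which lacks Arg1, 1 and 1 in the comparisons of ODNcap-F. With 1 mouse left out, the lone mouse is assumed to vary like the other groups, so only fold changes against NT are given here. Nos2 then rose by 3.08 to 3.55 on the log2 scale in Ctrl-F, 3.07 to 3.66 in Cap-F and 2.08 to 2.84 in ODNcap-F. Asl rose by 0.38 to 0.46, 0.17 to 0.28 and 0.34 to 0.41 in the same order.

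The replicate numbers did not pair the mice: deviations from the group means correlated between -0.012 and 0.161. With the replicate block, limma called 9 genes in Ctrl-F and ODNcap-F against NT and 0 between feeds. In Cap-F it called 8, and Asl was lost (adjusted p = 0.0575). Of 28992 genes tested, the block gave 17726 calls in Ctrl-F, 17142 in ODNcap-F and 16101 in Cap-F. Asl in Cap-F was also lost with only the compared groups in the fit and in the LPE test, which also lost it in ODNcap-F. Scaling and normexp left the median of all genes between -0.13 and -0.07 against NT. Signals near background limit Arg1 in NT, Nags and Il13.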
